A study of Arabidopsis thaliana with 12 samples.

Results

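The genes described here were higher under photorespiratory stress and lower with the compound pakerine alone. They were selected from the mean expression of each group in read counts scaled to library size (counts per 1000000 reads, CPM), as log2 ratios with 1 CPM added to both values. A gene was taken if Stress against DMSO was at least 1, Pakerine against DMSO at most -0.5 and Stress + Pakerine against Stress below 1. Of 21882 genes, 64 met the rule. Since these values chose the genes, the ratios below describe the selection and carry no test. The limit on Stress + Pakerine against Stress left out 0 genes that met the other conditions.

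The study asked how pakerine, a sulfonamide found in a chemical screen, acts in Arabidopsis thaliana seedlings that lack the peroxisomal catalase CAT2. RNA-seq was run on leaf material of 12 libraries in 4 groups of 3, all of them of the catalase2-2 (cat2-2) mutant, so that no wild type enters. Seedlings grew 5 to a well in liquid medium in long days of 16 h light, and at day 7 the medium was exchanged for one with 10 μM pakerine or the same volume of the solvent DMSO. DMSO and Pakerine seedlings were taken 4 days later, and Stress and Stress + Pakerine seedlings stayed a further 2 days in plates sealed with Parafilm under 24 h light.

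The stressed groups were therefore also 2 days older and without nights, and stress, age and light cannot be told apart. Stress + Pakerine seedlings also spent 2 more days in pakerine than Pakerine seedlings. Pakerine ratios without and with stress thus differ in time of exposure too. The hour of harvest is not given in the sources used here. Whether the libraries of a group came from separate plates is not stated either. The table gives only the authors' mean of each group, so no spread between libraries is shown and no difference is tested. For some ratios the value without added CPM is given as well, with its 95% counting interval from the reads behind the means, which covers counting error only. Where 4 levels follow each other without labels, they are in the order DMSO, Stress, Pakerine, Stress + Pakerine.

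Each library held 28472237 to 33512707 counted reads. CAT2 had mean values of 19.5 CPM in DMSO and 76.1 in Stress, against 37.2 in Pakerine and 108 in Stress + Pakerine, and with no wild type these do not check the mutant label. The 7 leaf markers, Rubisco and photosystem genes among them, were each at 650 CPM or more in every group and summed to 17249 CPM in DMSO, 20562 in Stress and 21142 in Pakerine, with 22672 in Stress + Pakerine. The 13 root markers summed to 87.4 CPM, 76.6 CPM, 158 CPM and 143 CPM in the same order. Of these, 8 were at least 0.5 higher in Pakerine than in DMSO on the log2 scale, and 0 of their values were at 0. The part of root tissue in the values below was not tested. In such bulk samples, fewer cells of a type and less RNA per cell cannot be told apart.

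Several of the selected genes belong to programs known for their timing or their hormone. In the plant circadian clock, CCA1 and LHY are transcription factors made around dawn that repress evening genes, while PRR9 represses both of them in turn. Salicylate drives defence against biotrophic pathogens, partly through WRKY70, and is tied to cell death in catalase mutants. Jasmonate with ethylene induces plant defensins, and abscisic acid governs dehydration and, together with NAC factors, leaf senescence.

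Short promoter elements are known for these programs: the G-box is bound by bHLH and bZIP factors, the TGA core by the TGA factors of salicylate signaling, the W-box by WRKY factors and the GCC-box by ethylene response factors. The 250 bases before the annotated start are shown for 10 of the genes, chosen for having one of these elements and for standing for the main roles. They were read from the RefSeq genome of build TAIR10.1, 5′ to 3′ on the strand of the gene. Capitals mark the G-box (CACGTG), the TGA core (TGACGT), the W-box (TTGACC or TTGACT), the GCC-box (GCCGCC) and the auxin response factor (ARF) element (TGTCTC), found on either strand. The first 4 are genes of the morning clock with a G-box and the fifth is a dehydration gene with one, then come 3 genes with the TGA core, FRK1 with both W-boxes and PDF1.2a with the GCC-box.
LHY (chr1:37872-38121, minus strand): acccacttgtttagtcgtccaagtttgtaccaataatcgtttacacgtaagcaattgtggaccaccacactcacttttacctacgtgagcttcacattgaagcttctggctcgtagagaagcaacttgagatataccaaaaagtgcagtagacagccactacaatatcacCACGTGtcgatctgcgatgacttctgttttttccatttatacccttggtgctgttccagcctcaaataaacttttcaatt
CCA1 (chr2:19245341-19245590, plus strand): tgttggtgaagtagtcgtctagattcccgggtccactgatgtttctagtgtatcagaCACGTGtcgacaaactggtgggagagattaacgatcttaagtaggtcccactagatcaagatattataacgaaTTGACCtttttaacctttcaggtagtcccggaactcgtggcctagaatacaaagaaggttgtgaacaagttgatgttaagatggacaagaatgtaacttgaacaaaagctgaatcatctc
PRR9 (chr2:19232357-19232606, plus strand): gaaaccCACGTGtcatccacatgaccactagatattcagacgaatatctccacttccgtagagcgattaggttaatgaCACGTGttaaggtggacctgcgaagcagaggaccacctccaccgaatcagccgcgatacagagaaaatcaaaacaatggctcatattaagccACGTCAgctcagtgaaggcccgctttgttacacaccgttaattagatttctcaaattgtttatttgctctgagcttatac
LNK3 (chr3:3923265-3923514, plus strand): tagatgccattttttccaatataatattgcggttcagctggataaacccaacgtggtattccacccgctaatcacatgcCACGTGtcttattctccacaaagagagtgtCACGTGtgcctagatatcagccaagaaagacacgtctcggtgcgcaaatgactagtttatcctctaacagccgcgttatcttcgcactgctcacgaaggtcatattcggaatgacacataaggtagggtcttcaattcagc
RD20 (chr2:14146556-14146805, minus strand): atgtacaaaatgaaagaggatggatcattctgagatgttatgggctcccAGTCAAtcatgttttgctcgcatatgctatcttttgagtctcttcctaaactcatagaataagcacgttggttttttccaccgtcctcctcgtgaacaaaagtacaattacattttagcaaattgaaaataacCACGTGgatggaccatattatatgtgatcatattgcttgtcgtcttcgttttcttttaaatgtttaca
WRKY70 (chr3:20910624-20910873, minus strand): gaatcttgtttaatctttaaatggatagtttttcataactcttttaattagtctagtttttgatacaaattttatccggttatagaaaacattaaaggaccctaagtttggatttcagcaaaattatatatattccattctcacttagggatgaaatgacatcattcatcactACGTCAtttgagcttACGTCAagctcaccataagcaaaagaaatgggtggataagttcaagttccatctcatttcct
AT5G03350 (chr5:816671-816920, minus strand): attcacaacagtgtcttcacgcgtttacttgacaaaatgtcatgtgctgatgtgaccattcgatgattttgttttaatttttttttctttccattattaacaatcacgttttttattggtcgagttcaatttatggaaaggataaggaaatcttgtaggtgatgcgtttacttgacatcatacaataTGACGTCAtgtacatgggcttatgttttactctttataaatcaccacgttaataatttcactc
LNK2 (chr3:20179071-20179320, minus strand): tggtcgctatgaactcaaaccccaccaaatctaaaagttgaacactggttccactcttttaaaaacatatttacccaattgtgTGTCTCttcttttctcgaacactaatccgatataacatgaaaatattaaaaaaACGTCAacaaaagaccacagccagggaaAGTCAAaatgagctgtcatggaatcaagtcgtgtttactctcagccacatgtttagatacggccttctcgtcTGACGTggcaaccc
FRK1 (chr2:8329945-8330194, minus strand): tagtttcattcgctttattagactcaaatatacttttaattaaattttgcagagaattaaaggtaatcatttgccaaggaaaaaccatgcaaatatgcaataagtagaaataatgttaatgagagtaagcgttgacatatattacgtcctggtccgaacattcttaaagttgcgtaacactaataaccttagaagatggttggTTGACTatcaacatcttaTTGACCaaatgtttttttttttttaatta
PDF1.2a (chr5:17907639-17907888, minus strand): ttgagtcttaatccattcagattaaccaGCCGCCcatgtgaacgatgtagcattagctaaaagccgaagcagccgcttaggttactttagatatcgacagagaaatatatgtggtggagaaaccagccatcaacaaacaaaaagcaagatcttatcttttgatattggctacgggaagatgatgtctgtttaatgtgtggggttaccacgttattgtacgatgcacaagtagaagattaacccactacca

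The first base of the G-box lay 80 bases before the start of LHY, 193 before that of CCA1, 244 and 172 before that of PRR9, 171 and 141 before that of LNK3 and 68 before that of RD20. The WRKY70 promoter held the TGA core at 77 and at 62 bases before the start, both on the opposite strand. The run of 8 capitals in AT5G03350 is a palindrome that reads as the TGA core on both strands. The W-boxes of FRK1 began 47 and 29 bases before the start, and the GCC-box of PDF1.2a 222 bases before it.

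Among 21730 promoters of measured genes, the TGA core was found in 8.07%, and among the 64 selected genes in 15, or 23.4%. It occurred in 4 of the 13 salicylate and immunity genes, in 3 of the 7 detoxification genes and in 0 of the 5 abscisic acid and senescence genes. The G-box was in 10 of the 64, or 15.6%, against 7.12% of all promoters. Of these 10, 4 were among the 7 morning clock genes and 3 among the 5 abscisic acid and senescence genes (NAC019, NAP and RD20), while the 13 salicylate and immunity genes had 0. The W-box in either form stood at 28.1% of the selected genes and 28.3% of all promoters. A matched motif says only that these letters are in the window, and these shares were not tested.

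The other motifs were searched in the same way on both strands. The GCC-box was in 3 of the 64 against 1.99% of all promoters, the evening element (AAAATATCT) in 4 against 2.46%, and the DRE core (GCCGAC) in 1 against 2.84%. The I-box (GATAAG) was in 11 against 12.4%, the HSE core (GAANNTTC) in 11 against 9.41%, and P1BS (GNATATNC) in 4 against 5.46%. Site II (GGGCC) was in 7 against 18.4%, the SURE core (GAGAC) in 18 against 25.3% and the ARF element, which contains the reverse complement of the SURE core, in 5 against 10.7%. The 4 genes with an evening element were XGD1, PORA, ZAT12 and RAB18, none of them among the morning clock genes.

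**Figure D1:**
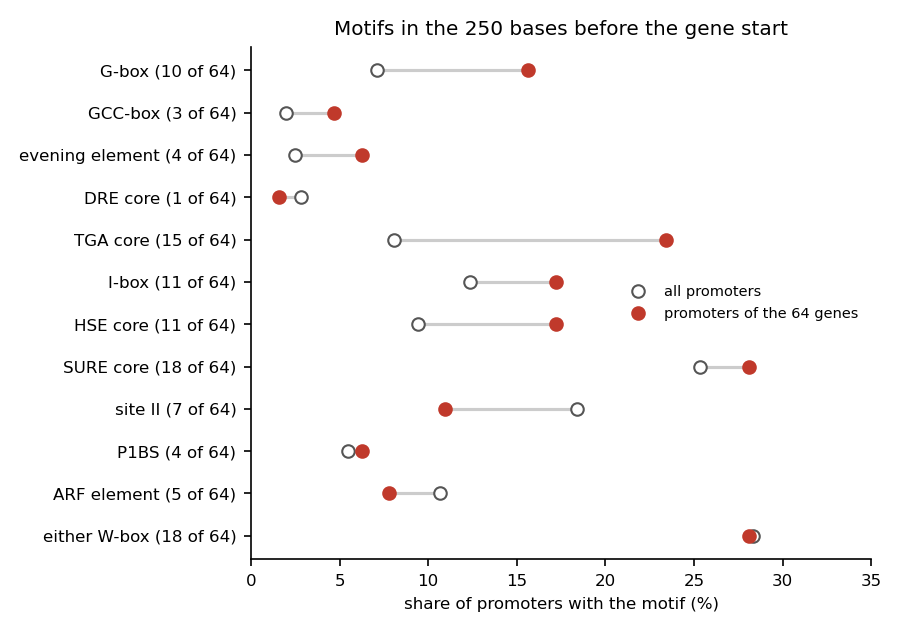
Share of promoters (%, x axis) that hold each motif in the 250 bases before the gene start, for all 21730 promoters (open circles) and for the 64 selected genes (filled circles). The widest gap is that of the TGA core, at 23.4% against 8.07%, and the W-box points nearly coincide.

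Of the 64 genes, 17 lie on chromosome 1, 14 on chromosome 2, 10 on chromosome 3, 4 on chromosome 4 and 19 on chromosome 5. They include 4 pairs within 20 kb of each other: PRR9 with CCA1, CDF3 with AT3G47480, AT3G28540 with AT3G28580, and AT1G24145 with AT1G24147. A stretch of 75 bases, the read length, was shared with another gene in 9 of them. For 3 of these it covered over 5% of the stretches: 25.9% in PRR9 (shared most with AT2G46670), 18.0% in AT5G25260 and 10.9% in AT4G38560. In GSTF6 it was 4.47% (GSTF7), in WAK1 3.86% (WAK2) and in DOGT1 2.34% (UGT73C6). Genes on the opposite strand overlap 10 of them, FRK1, LNK2, LNK3, NRT1.8, ANK, RAB18 and AT5G03350 among these, and the strand setting of the counting is not given in the sources used here.

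Stress against DMSO was at least 1 in 623 genes, which is 2.85% of all and includes the 64 by the rule. Pakerine against DMSO was at most -0.5 in 352 genes, or 1.61%, again including all 64. Among the 620 stress-raised genes that stayed below 1 in Stress + Pakerine against Stress, the 64 make up 10.3%. Most of the others, 508 genes, lay within 0.5 of DMSO with pakerine alone. The selected genes had a median of 5.97 CPM in DMSO and 20.0 in Stress, compared with 3.17 in Pakerine and 22.7 in Stress + Pakerine. In the 508 genes the medians were 6.10, 18.9, 6.39 and 20.0 CPM in the same order.

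The median log2 ratio of Stress against DMSO was 1.66 in the selected genes (range 1.01 to 3.78), 1.33 in the 508 and -0.05 over all genes. With pakerine alone it was -0.67 (range -1.24 to -0.50), against -0.01 in the 508 and -0.01 over all genes. Both ratios share the DMSO mean. The Pakerine mean was below those of DMSO and Stress by the rule, and it was below that of Stress + Pakerine in all 64 as well. In 14 of them it was under 1 CPM. The reads behind the Pakerine mean ranged from 2 to 4962, with 15 genes under 100. For all 64 the counting intervals of both ratios lay on the selected side of 0. The rule chose these same ratios, and the intervals hold no spread between libraries, so this is no support for the members.

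**Figure D2:**
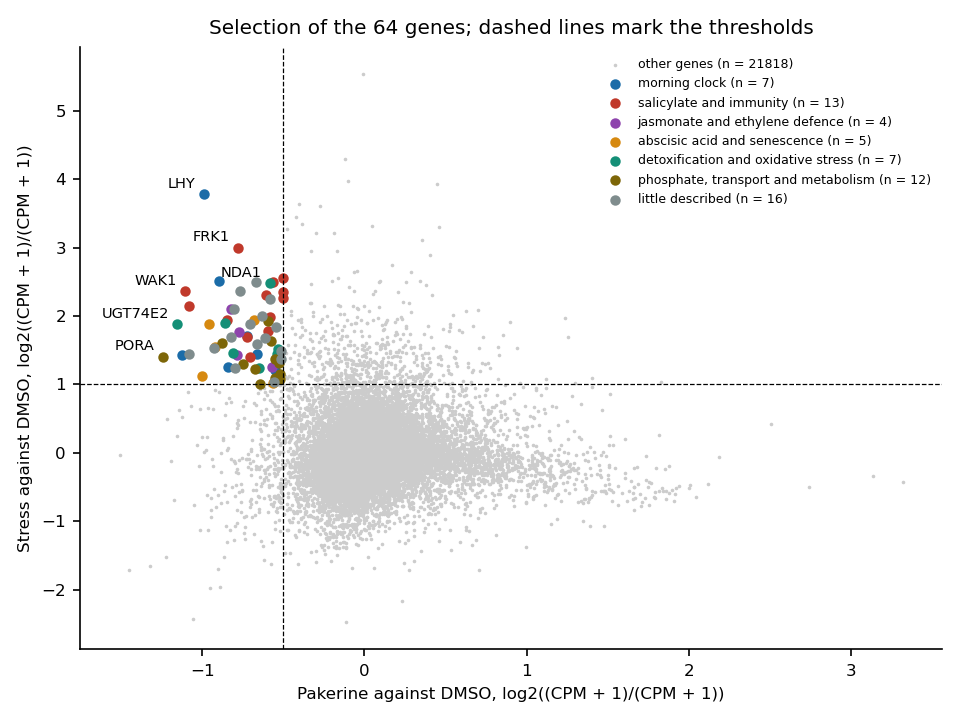
Log2 ratio of Pakerine against DMSO (x axis) and of Stress against DMSO (y axis) for each of 21882 genes, both with 1 CPM added. Coloured points are the 64 selected genes by role and dashed lines the thresholds at -0.5 and 1; LHY stands highest at 3.78 and PORA farthest left at -1.24.

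Close to the stress threshold, PYD4 (1.01) and RD20 (1.02) were just inside, and AT1G72900 (0.997) and AT5G12010 (0.996) just outside. For pakerine alone WRKY54 (-0.502) and PBS3 (-0.505) were inside, and AT5G26220 (-0.493) and AT5G52760 (-0.483) outside. The members nearest the limit of 1 on Stress + Pakerine against Stress were GBSS1 (0.83) and AT5G03350 (0.76).

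With both treatments the genes differed among themselves. Stress + Pakerine against Stress was below 1 in 98.3% of all genes. It was at most -0.5 in 15 of the 64, while 206 genes, or 0.941% of all, were that low. It was at least 0.5 in 4 of the 64 (LHY, AIG1, GBSS1 and AT5G03350) against 6.25% of all genes. In the remaining 45 it lay between -0.5 and 0.5. The median was -0.13 in the selected genes (range -1.44 to 0.83), 0.00 in the 508 stress-raised genes that pakerine alone left within 0.5, and 0.01 over all genes. Of those 508, 24 (4.72%) were at most -0.5, compared with 23.4% of the 64. The ratio is taken against the Stress mean, which the rule selected to be high, so nothing is read from these shares.

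Compared with DMSO, 47 of the 64 (73.4%) were higher by at least 1 in Stress + Pakerine, as were 4.41% of all genes. Of the 508 stress-raised genes that pakerine alone left within 0.5, 430 (84.6%) were that high. Compared with Pakerine, 61 of the 64 were higher by at least 1, against 3.29% of all genes and 409 of the 508. The others of the 64 were RD20 (0.71), INT2 (0.60) and PYD4 (0.87). Both contrasts use group means that the rule also used. Stress gave the highest mean in 39 genes and Stress + Pakerine in 25. In the 508 these counts were 252 and 256, and over all 21882 genes 4799 and 4797. In 9 genes the ratio of Stress + Pakerine against Stress was at or below that of Pakerine against DMSO: PORA, RAB18, NAP, INT2, AT5G39520, RD20, PYD4, AED1 and AT3G10320. The same held for 9648 of 21882 genes and for 265 of the 508. In the 64 the rule sets the ratio of Pakerine against DMSO low, so nothing is read from these counts. PORA alone ended below DMSO, at 4.11 CPM with both treatments against 4.22 CPM.

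**Figure D3:**
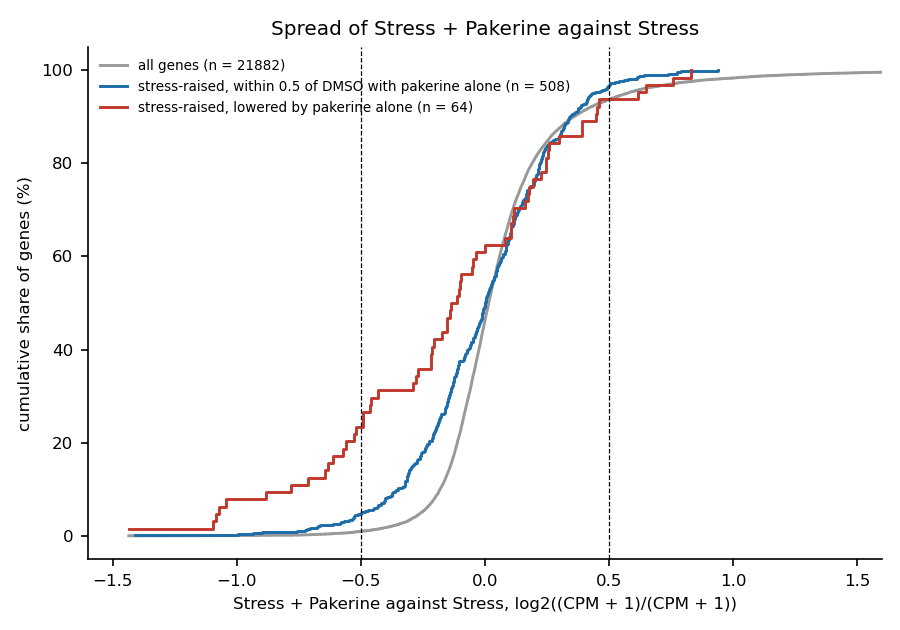
Cumulative share of genes (%, y axis) by the log2 ratio of Stress + Pakerine against Stress (x axis, shown from -1.6 to 1.6), for all 21882 genes, the 508 stress-raised genes within 0.5 of DMSO with pakerine alone, and the 64 selected genes. At -0.5 the curves stand at 0.941%, 4.72% and 23.4%.

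The 64 genes were sorted into 7 roles after their values had been seen, so that the roles only order the description. The groups are the morning clock (7 genes), salicylate and immunity (13), jasmonate and ethylene defence (4), abscisic acid and senescence (5), detoxification and oxidative stress (7), phosphate, transport and metabolism (12), and 16 genes that are little described.

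**Figure D4:**
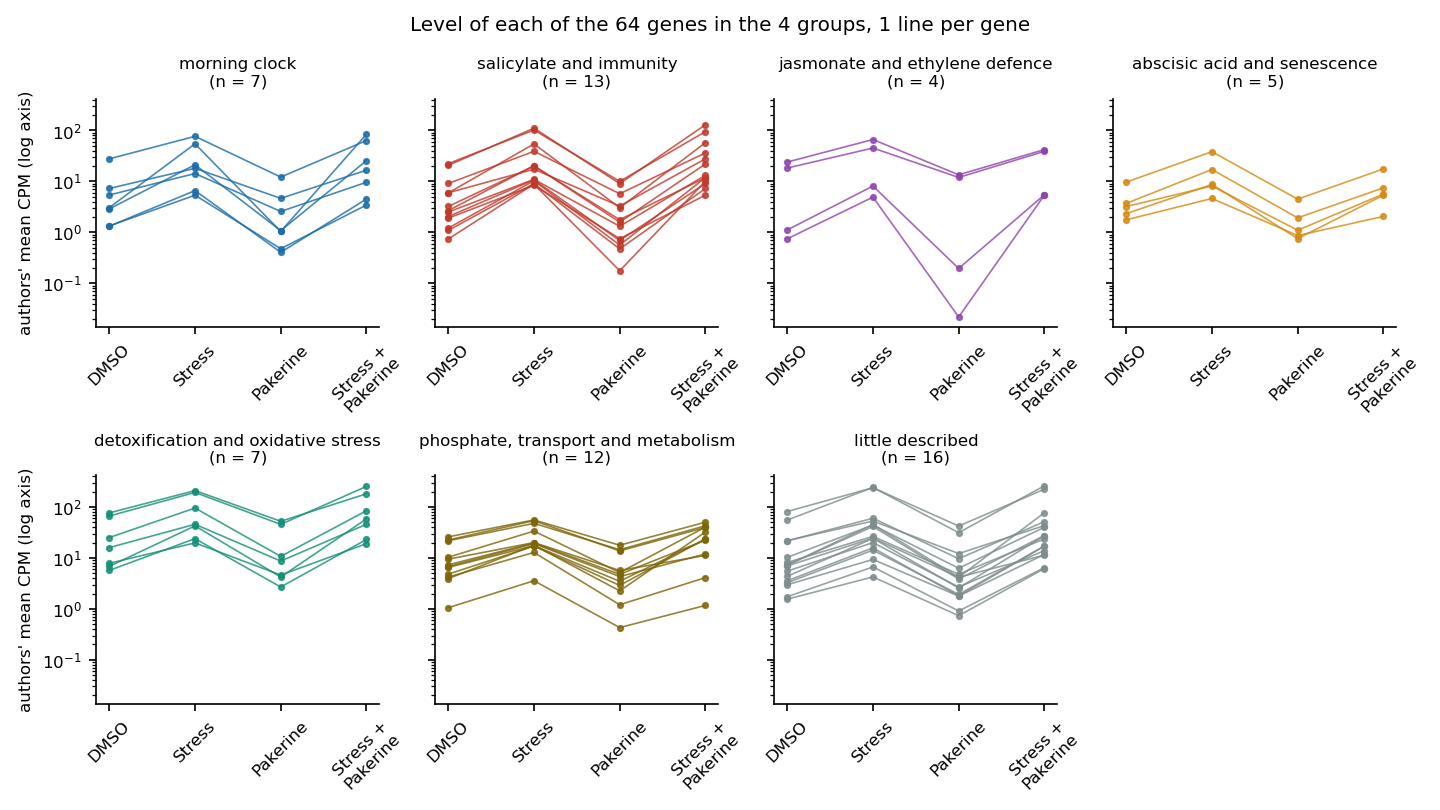
The authors' mean CPM (y axis, log scale) of each selected gene in DMSO, Stress, Pakerine and Stress + Pakerine, with 1 panel per role and 1 line per gene. Every line dips at Pakerine, PDF1.2a to 0.0219 CPM, and LHY climbs from 1.04 CPM in Pakerine to 84.4 CPM in Stress + Pakerine.

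The morning clock genes include the largest stress ratio of the set. LHY was at 3.06 CPM in DMSO and 54.8 in Stress, against 1.04 in Pakerine and 84.4 in Stress + Pakerine. Its stress ratio of 3.78 was the highest of the 64, and with pakerine alone the mean was lower, at 99 against 274 reads (-0.99, or -1.55 without added CPM, interval -1.90 to -1.21). Under stress the mean with pakerine was instead the higher one (0.61, or 0.62 without added CPM, interval 0.57 to 0.67). Its partner CCA1 stood at 2.89, 21.3, 1.08 and 25.6 CPM in DMSO, Stress, Pakerine and Stress + Pakerine. The ratio of Pakerine against DMSO was -0.90 in CCA1 and that of Stress + Pakerine against Stress 0.26.

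PRR9, a repressor of both, was at 1.34 CPM in DMSO, 5.37 in Stress and 0.478 in Pakerine, with 3.45 in Stress + Pakerine. Pakerine gave -0.66 without stress and -0.52 under stress. LNK2, a coactivator that works with the RVE factors, had the third lowest pakerine ratio of the 64, at -1.13, with 27.8, 76.8, 12.2 and 63.5 CPM in the 4 groups. For its relatives LNK3 and LNK4, pakerine alone gave -0.72 and -0.84, and pakerine under stress -0.46 and -0.53. CDF3, a DOF repressor of flowering, was at -0.55 and -0.11. So PRR9 and the 3 LNK genes were lower with pakerine in both settings, whereas LHY and CCA1 were lower without stress and higher with it.

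Of the 13 genes on a broader clock list, 5 had a stress ratio of at least 1 and 6 a pakerine ratio of at most -0.5. LHY, CCA1 and PRR9 met both. PRR7, PRR5 and GI, which peak later in the day, met only the second: PRR7 was at 119 CPM in DMSO and 109 in Stress, compared with 51.3 in Pakerine and 69.7 in Stress + Pakerine. RVE8 and RVE1 met only the first, RVE8 with 2.00, 28.8, 2.09 and 37.7 CPM. These levels depend on the time of day, and hour of harvest and treatment cannot be told apart here.

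Among the salicylate and immunity genes, WRKY70, a transcription factor that turns on salicylate-dependent defence, was at 22.3 CPM in DMSO and 102 in Stress, against 10.0 in Pakerine and 95.03 in Stress + Pakerine. The stress ratio was 2.15 and the pakerine ratio -1.08 (-1.15 without added CPM, interval -1.27 to -1.04), while the value with both treatments was close to that with stress (-0.11). WAK1, a wall-associated kinase that binds pectin, had a similar course of 20.7, 111, 9.07 and 130 CPM and a pakerine ratio of -1.10. From a Pakerine level below that of DMSO, both came close to their Stress level when the treatments were combined (-0.11 for WRKY70 and 0.22 for WAK1).

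WRKY54, the closest relative of WRKY70, was at 1.21 CPM in DMSO, 10.3 in Stress and 0.564 in Pakerine, with 11.9 in Stress + Pakerine. PBS3, which couples isochorismate to glutamate on the way to salicylate, was at 2.67, 20.5, 1.58 and 22.1 CPM. FRK1, a receptor-like kinase induced by bacterial flagellin, had the second highest stress ratio of the set (3.00) and stood at 5.95, 54.5, 3.05 and 57.7 CPM. All of these were within 0.2 of Stress when pakerine was added to stress, at 0.19 for WRKY54, 0.11 for PBS3 and 0.08 for FRK1.

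ANK, an ankyrin repeat protein, rested on few reads without stress, 66 in DMSO and 17 in Pakerine (-2.07 without added CPM, interval -2.90 to -1.25), and was at 8.87 CPM in Stress and 10.15 CPM in Stress + Pakerine. The stress ratios of the receptor-like protein RLP7, the kinase AT1G51890 and SIB1, a WRKY-binding protein, were 2.26, 1.98 and 1.77, and those of the natriuretic peptide PNP-A and AIG1 were 1.95 and 1.4. AIG1 was the only gene of this role at least 0.5 higher with both treatments than with stress (17.38 CPM in Stress, 27.85 CPM in Stress + Pakerine). AED1, an aspartyl protease of the apoplast, showed the opposite (20.0 CPM and 11.8 CPM), as did ELI3-2, an alcohol dehydrogenase induced by elicitors (8.40 CPM and 5.38 CPM). All 13 genes of this role were at least 1 above DMSO with both treatments, the lowest at 1.14. The same held for 84.4% of all stress-raised genes and 4.41% of all genes. The rule chose genes that stress raised, so nothing is read from this count.

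Of 19 measured genes on the list of salicylate synthesis and response, 13 had a stress ratio of at least 1 and 3 a pakerine ratio of at most -0.5, namely WRKY54, WRKY70 and PBS3. The list's median pakerine ratio was -0.15, against -0.01 over all genes. PR1, the common marker of the pathway, was outside the set, with 0.250 CPM in DMSO and 56.7 in Stress, compared with 0.240 in Pakerine and 20.7 in Stress + Pakerine.

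The defensins PDF1.2a and PDF1.3, antifungal peptides of the jasmonate and ethylene branch, had some of the fewest reads in Pakerine. PDF1.2a was at 0.747 CPM in DMSO and 4.92 in Stress, against 0.0219 in Pakerine and 5.398 in Stress + Pakerine. That is 67 reads in DMSO and 2 in Pakerine, a log2 ratio of -5.09 without added CPM (interval -8.22 to -3.24) and -0.77 with it. The Pakerine mean of PDF1.2a is under the floor of 3 reads, or 0.0317 CPM, so the size of the ratio without added CPM is uncertain. PDF1.3 was at 1.12, 8.12, 0.196 and 5.48 CPM, or 100 and 19 reads without stress (-2.51, interval -3.27 to -1.76). In both, the added 1 CPM makes the pakerine ratio much smaller than the reads give.

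ERF2, an ethylene response factor that activates such genes, stood at 18.3, 45.3, 11.98 and 39.0 CPM, and the trypsin inhibitor TI1 at 24.0, 66.5, 13.5 and 42.2 CPM. TI1 was lower with pakerine both without stress (-0.79) and with it (-0.64). Of 8 measured ERF-branch genes, 5 passed the stress threshold and 2 the pakerine threshold. PDF1.2b (-0.48) and PDF1.2c (-0.39) missed the latter, at 0.542 and 0.338 CPM in DMSO and 0.105 and 0.0203 CPM in Pakerine. Both means were thus lower in Pakerine too, and the added 1 CPM makes their ratios smaller. Missing the threshold therefore does not set these defensins apart from PDF1.2a and PDF1.3.

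The 5 selected genes of abscisic acid and senescence were lower with pakerine under stress as well. NAP, a NAC factor that promotes leaf senescence, was at 9.69 CPM in DMSO, 38.4 in Stress and 4.49 in Pakerine, with 17.602 in Stress + Pakerine. The pakerine ratio was -0.96 without stress (-1.11 without added CPM, interval -1.28 to -0.94) and -1.08 with it (-1.13, interval -1.21 to -1.04). RAB18, a dehydrin induced by abscisic acid, was at 3.71, 17.1, 1.93 and 7.49 CPM, with ratios of -0.68 and -1.10. In these 2 genes, as in all 5 of the role, the mean with both treatments lay between those of DMSO and Stress. Among the 64 genes Stress gave the highest mean in 39.

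NAC019, a NAC factor of abscisic acid and jasmonate responses, was at 2.33, 8.73, 0.757 and 5.36 CPM. RD20, a caleosin of lipid droplets induced by drought, was at 1.77, 4.63, 0.868 and 2.06 CPM, so that its ratio of Stress + Pakerine against DMSO was 0.14. RNS1, a secreted ribonuclease of senescence and phosphate shortage, was at 3.21, 8.14, 1.102 and 5.65 CPM. Over the 5 genes the ratio of Stress + Pakerine against Stress ran from -1.10 to -0.46 with a median of -0.88. With both treatments 0 of them reached 1 above DMSO, against 84.4% of all stress-raised genes and 4.41% of all genes.

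The fixed lists of these programs held few members. On the senescence list, NAP alone passed the pakerine threshold among 10 measured genes and 2 passed that for stress, the other being SAG13 with 0.519, 17.9, 0.146 and 10.8 CPM. Among 12 cold, drought and abscisic acid genes, RAB18 was the only one past the stress threshold, and 3 passed that for pakerine. Stress + Pakerine against Stress was at most -0.5 in 4 of the 10 senescence genes (list median -0.30). It was that low in 2 of the 12 (list median -0.19), against 0.941% of all genes. On both lists 0 genes were at 0.5 or more, against 6.25% of all genes. Some were above 0: WRKY53 (0.36), SAG29 (0.41) and SAG101 (0.07) on the senescence list, and LTI30 (0.42) on the other.

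**Figure D5:**
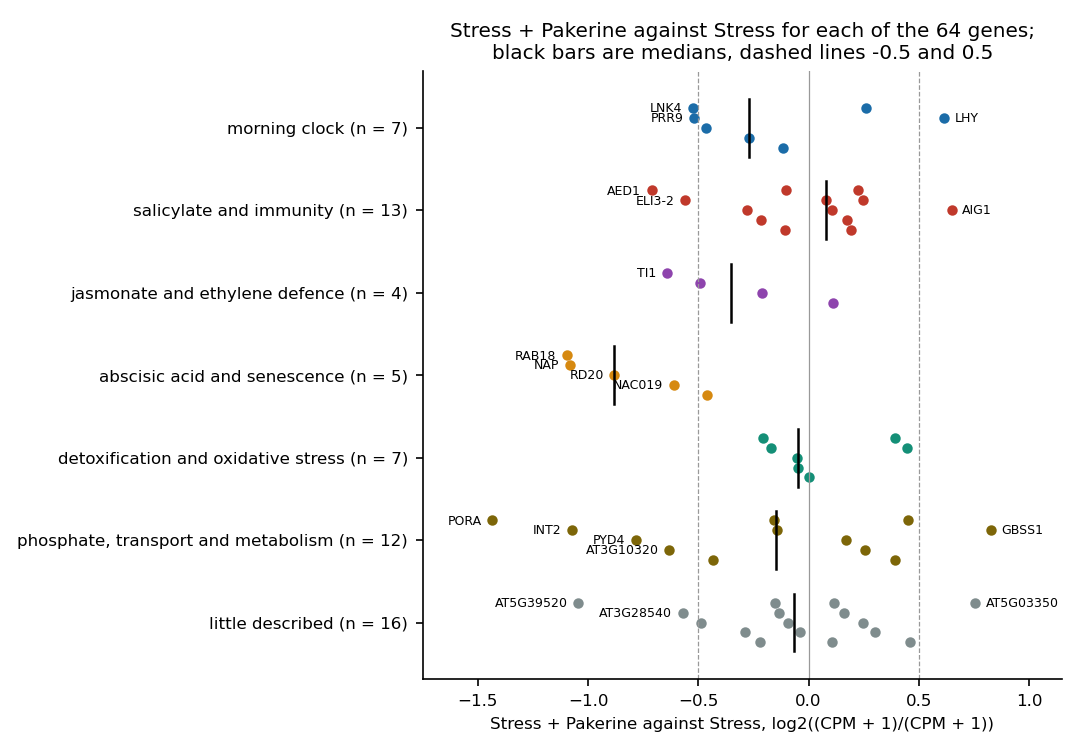
Log2 ratio of Stress + Pakerine against Stress with 1 CPM added (x axis) for each selected gene, in 1 row per role, with the median of each role as a black bar. The abscisic acid and senescence genes lie between -1.10 and -0.46, and the detoxification genes between -0.21 and 0.45; genes at or past -0.5 and 0.5 are named.

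Detoxification genes lay between -0.21 and 0.45 of their Stress level when pakerine was added to stress. UGT74E2, a glucosyltransferase that conjugates the auxin indole-3-butyric acid and responds to hydrogen peroxide, was at 25.1 CPM in DMSO and 95.4 in Stress, compared with 10.7 in Pakerine and 84.6 in Stress + Pakerine. Its pakerine ratio of -1.15 was the second lowest of the set, from 2247 against 1015 reads, and its ratio under stress was -0.17. DOGT1, a glucosyltransferase of xenobiotics and brassinosteroids, was at 76.6, 210, 52.4 and 182 CPM, and GSTF6, a glutathione transferase, at 66.5, 193, 45.6 and 253 CPM. These last 2 were among the most abundant of the set, and their pakerine ratios of -0.54 and -0.53 lay near the threshold.

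NDA1, an alternative NADH dehydrogenase of mitochondria, was at 6.83 CPM in DMSO and 42.6 in Stress, against 4.22 in Pakerine and 58.5 in Stress + Pakerine. ZAT12, a zinc finger protein of oxidative stress, was at 7.83, 19.8, 4.62 and 19.1 CPM. Stress ratios were 1.9 for the glutathione transferase GSTU4 and 1.46 for ChlAKR, a plastid aldo-keto reductase of reactive carbonyls, and both were within 0.1 of Stress with pakerine added. All 7 genes of this role were at least 1 above DMSO with both treatments, as were 84.4% of all stress-raised genes and 4.41% of all genes. On the list of mitochondrial retrograde and hydrogen peroxide genes, 2 of 9 passed the stress threshold (UGT74E2 and ZAT12) and 4 that for pakerine.

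The metabolic genes were the most mixed. PORA, a protochlorophyllide reductase of chlorophyll synthesis, had the lowest pakerine ratio of all 64 in both settings, and under stress also the lowest of all 21882 genes with 1 CPM added. It was at 4.22 CPM in DMSO, 12.8 in Stress and 1.21 in Pakerine, with 4.11 in Stress + Pakerine. These give -1.24 for pakerine alone (-1.81 without added CPM, interval -2.13 to -1.51) and -1.44 under stress (-1.64, interval -1.81 to -1.48). GBSS1, the starch synthase that makes amylose, was the reverse under stress, at 3.93, 17.8, 2.26 and 32.3 CPM, with 0.83. INT2, an inositol transporter, was at 1.05, 3.57, 0.430 and 1.17 CPM, and PYD4, an aminotransferase, at 9.46, 20.0, 5.67 and 11.2 CPM. The ratio of Stress + Pakerine against DMSO was 0.08 in INT2 and 0.22 in PYD4.

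MGD3, a galactolipid synthase, and PS2, a phosphatase, are known from phosphate starvation. MGD3 was at 6.52 CPM in DMSO and 17.42 in Stress, compared with 3.48 in Pakerine and 23.2 in Stress + Pakerine, and PS2 at 4.799, 17.1, 2.89 and 23.7 CPM. Both were the only ones past the stress threshold of 10 measured phosphate starvation genes, of which 3 passed the pakerine threshold. The third was SPX1, a phosphate sensor, with 159, 298, 106 and 316 CPM. Of the transporters, NRT1.8, which unloads nitrate from the xylem, had 0.17 under stress and ZIFL1 -0.43. The acyltransferase AACT1 stood at 0.26, and the pectin xylosyltransferase XGD1 at -0.14.

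The 2 most abundant genes of the set in Stress are little described. AT5G42530 was at 55.4 CPM in DMSO and 242 in Stress, against 31.3 in Pakerine and 261 in Stress + Pakerine. CP1, a calcium-binding protein, was at 81.5, 239, 42.3 and 224 CPM. AT4G08555 was at 21.6, 60.2, 9.66 and 51.6 CPM, with a pakerine ratio of -1.08. AT5G03350, a lectin-like protein, was at 7.22, 45.3, 4.18 and 77.3 CPM, and AT3G28540 at 7.255, 41.4, 3.85 and 27.6 CPM. The first of these last 2 was thus higher and the second lower with both treatments than with stress. The neighbours AT1G24145 and AT1G24147 had pakerine ratios of -0.82 and -0.63, and AT5G39520 was at -0.62 alone and -1.04 under stress.

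Of 22 lists with 242 genes, 7 held at least 1 of the selected genes and together 14 of them, while 15 lists held 0. Among the lists without a member were those of MYC-branch jasmonate responses, camalexin and indole glucosinolates, flavonoids, hypoxia, heat shock, iron and sulfur deficiency, carbon starvation, auxin responses and root cells. On the camalexin and indole glucosinolate list, 5 of 10 genes passed the stress threshold but 0 that for pakerine. On the heat shock list 8 of 10 passed the pakerine threshold and 0 that for stress, and on the hypoxia list 6 of 11 and 0. Over all genes 2.85% passed the stress threshold and 1.61% that for pakerine, so a count of 0 on lists this short says little. The median of Stress against DMSO was -0.80 on the heat shock list and -0.33 on the hypoxia list, against -0.05 over all genes.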

How the data were processed

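The authors sequenced 75-base single-end reads. Per the labels, reads were trimmed (Trim Galore 0.3.3), aligned to TAIR10 (TopHat2 2.1.0) and counted by gene (featureCounts, Subread 1.4.6), leaving out rRNA, tRNA and further RNA genes. The deposited table gives the authors' mean CPM of each group of 3 libraries. The columns sum to 999887 to 999914, so the means hold no TMM factors. Its columns of fold changes, p-values and FDR between groups were not used.

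Groups follow the table's headings. For 6 of 12 libraries the labels disagree: the 3 titled as pakerine without stress carry treatment fields of stress without pakerine, and the 3 titled as stress carry those of pakerine. These are the Stress and Pakerine groups, whose values would trade places if the headings were exchanged, which was not tested. Library sizes came from the lowest means, whose steps are whole reads for 100% of values under 0.12 CPM (tolerance 2e-08). The depth gives a floor of 3 reads, or 0.0317 to 0.0335 CPM. Intervals are conditional Clopper-Pearson (scipy 1.17.1). They were tried on simulated reads with counting error only, so that trial says nothing about spread between libraries. No test across genes was made, since the table holds group means only. Gene symbols and positions came from RefSeq TAIR10.1, in which all 64 genes and 21731 of 21882 matched.

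The genes and lists were chosen with earlier results of these data known. Named genes are the 10 with the lowest pakerine ratio, the 10 with the highest stress ratio, the 10 most abundant in Stress, those on a fixed list and those nearest a threshold (29 selected genes by the first 4 conditions). Other genes were named after their values were seen. Alternatives were the added CPM, a filter at 1 CPM, centring and a shorter promoter.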

Additional observations from a re-analysis of the deposited data

How the results depend on the processing

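With 0.1 CPM added in place of 1 CPM, 156 genes met the rule, all 64 among them, and with 5 CPM added 14 did. The medians of the 64 with 0.1 CPM added were 1.87 for Stress against DMSO, -0.89 for Pakerine against DMSO, 1.83 for Stress + Pakerine against DMSO (1.72 with 0.5 CPM) and 2.67 for Stress + Pakerine against Pakerine. The background shares became 4.70% for stress, 3.72% for pakerine, 2.27% and 11.6% for Stress + Pakerine against Stress at most -0.5 and at least 0.5, 9.14% for Stress + Pakerine against DMSO and 4.96% against Pakerine. More genes of few reads pass with less added CPM. In the last 100 bases before the start, the G-box was in 4 of the 64 (4.1% of all promoters), the TGA core in 9 (4.13%), a W-box in 6 (13.3%) and the evening element in 2 (1.02%).

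With 0.5 CPM added 90 genes met the rule, with centred ratios 60, of which 57 were among the 64, and with at least 1 CPM in each group 50. The counts at or past -0.5 and 0.5 in Stress + Pakerine against Stress ranged from 10 to 19 and from 4 to 5. Of the single ratios of the 64 genes, 49 of 192 moved by more than their counting error with 0.1 CPM added, 3 of 192 with 0.5 CPM and 4 of 192 when centred, and 0 changed sign from beyond 0.5.

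No paired analysis was possible because the columns are group means, and for the same reason leaving out single libraries was not done. Stress differs from its control also in age and light, and Stress + Pakerine from Pakerine also in days of pakerine. Genes near a threshold and those under 100 reads in Pakerine are the least certain members.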
